A study of Homo sapiens with 4 samples.

Results

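TFE3, TFEB and MCOLN1 are 3 regulators of the lysosome, here followed in SH-SY5Y cells, a human neuroblastoma line of sympathetic lineage. They were taken as the probe sets that the platform annotation names for these genes, and each gene had 1 such probe set, so no choice between probe sets was needed. They are 3 of 14884 genes named on the array, and all 3 were among the 11883 genes bright enough to be tested. The genes were picked because earlier results of these data had shown them higher after origamicin, so their own differences are given as a description and without a test.

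RNA was read on 4 Affymetrix Human Gene 2.0 ST arrays. The origamicin group was 2 cultures given 30 µM origamicin, which the submitters describe as an inhibitor of protein disulfide isomerase, for 24 h, and the mock group was 2 cultures given methanol, the solvent, for 24 h. The labels name biological replicates but give no passage or day for them, and p-values therefore cover the spread among these 4 arrays only. Values are log2 expression as deposited, and a difference is origamicin minus mock on that scale. All groups share the same line and medium, and 1 dose and 1 time were measured.

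TFE3 and TFEB belong to the MiT/TFE family of basic helix-loop-helix leucine zipper transcription factors, together with MITF and TFEC. In fed cells the Rag GTPases bring these factors to the lysosome, where the kinase mTORC1 phosphorylates them and keeps them in the cytosol. On starvation or lysosomal damage they lose the phosphates, enter the nucleus and switch on genes of lysosomes and autophagy through E-box elements of the CLEAR type. MCOLN1 encodes TRPML1, a cation channel of the lysosomal membrane. Calcium released through it can activate calcineurin, a phosphatase that acts on TFEB, and MCOLN1 is itself a known TFEB target. The arrays read RNA, not the phosphorylation or the place of these proteins in the cell.

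The E-box element is shown first, because these factors act through elements of this type and MCOLN1 is a known TFEB target. The promoter window of MCOLN1 (RefSeq, GRCh38.p14, chr19:7522374-7522673, plus strand) covers 250 bases before the annotated start site and 50 from it on, and capitals mark every match to the extended E-box TCACGTG on either strand.
MCOLN1: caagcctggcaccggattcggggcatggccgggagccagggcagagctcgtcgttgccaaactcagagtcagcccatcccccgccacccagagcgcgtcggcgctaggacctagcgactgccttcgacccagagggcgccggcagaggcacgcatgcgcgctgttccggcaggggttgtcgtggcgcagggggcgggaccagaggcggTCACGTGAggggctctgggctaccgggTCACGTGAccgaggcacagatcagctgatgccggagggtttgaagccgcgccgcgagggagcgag
The window holds 2 such elements. Their CACGTG cores begin 41 and 14 bases before the start site, 27 bases apart, and each is flanked so that the extended motif matches on both strands. Over all 35116 promoter windows of the RefSeq table, CACGTG occurred in 7.26% and TCACGTG, which contains it, in 3.71%. Another motif, the M-box TCATGTG, was not found in the MCOLN1 window and occurred in 2.92% of all windows. The 1 window of TFE3 and the 3 windows of TFEB held none of these motifs. A match is a description of letters and does not show that a factor binds there, and a missing match covers only these windows.

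TFE3 was higher in origamicin cells. Its log2 values were 7.92 and 7.74 on the origamicin arrays, against 7.41 and 7.31 on the mock arrays. Both origamicin arrays lay above both mock arrays, and the smallest distance between the groups, 0.33, exceeded the distance of 0.19 within the origamicin group and of 0.10 within the mock group. The difference was 0.47 ± 0.09 (moderated SE, n = 2 arrays per group), which is 1.39-fold. Without any 1 array it stayed between 0.38 and 0.57.

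TFEB differed by a similar amount on dimmer and noisier values. It stood at 4.86 and 5.02 on the origamicin arrays, against 4.64 and 4.35 on the mock arrays. The groups did not overlap, but the smallest distance between them, 0.22, was less than the distance of 0.29 between the mock arrays. The difference was 0.45 ± 0.13 (moderated SE, n = 2 arrays per group), or 1.36-fold, and without any 1 array it ranged from 0.30 to 0.59. Genes with a mean below 3.82 were left out as dim, and TFEB, with its lowest array at 4.35, stood not far above that level, where array background can hide part of a change.

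MCOLN1 had the smallest difference of the 3 and the tightest replicates. It stood at 8.28 and 8.25 on the origamicin arrays, against 8.01 and 8.01 on the mock arrays. The groups were apart by at least 0.24, and the distance within a group was at most 0.03. The difference was 0.25 ± 0.06 (moderated SE, n = 2 arrays per group), or 1.19-fold, and without any 1 array it stayed between 0.24 and 0.27. With the array medians made equal it was 0.24.

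Among all genes tested, 98.6% had a smaller difference than TFE3, 98.4% than TFEB and 92.8% than MCOLN1. Groups that did not overlap, with origamicin higher, were found for 22.7% of all genes tested. Since the 3 genes were chosen on this contrast, nothing is read from either figure. The order of the arrays within a group was not shared. TFE3 and MCOLN1 had their higher origamicin value on replicate 1 and TFEB on replicate 2.

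**Figure D1:**
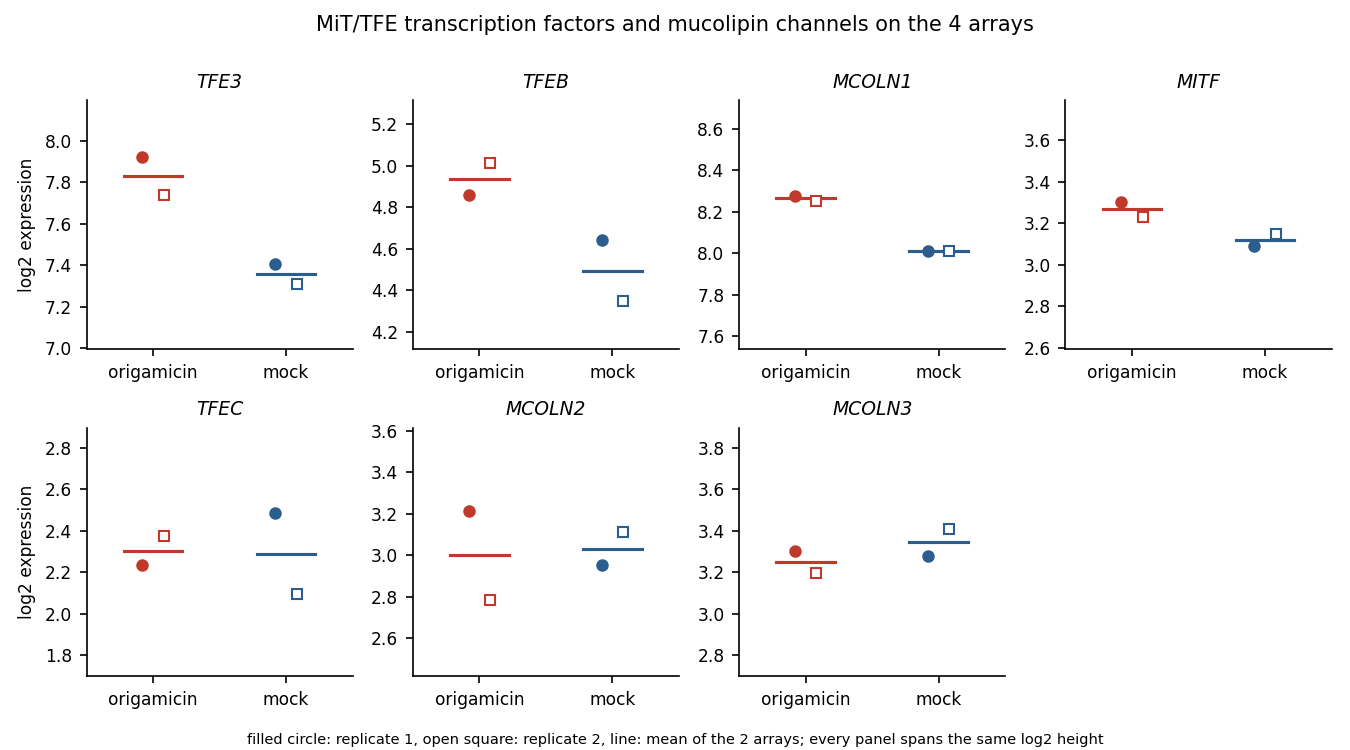
Log2 expression of the MiT/TFE genes and mucolipin genes on each array, with origamicin left of mock; points are the 2 arrays of a group, the line is their mean, and each panel spans 1.2 log2 units. TFE3, TFEB and MCOLN1 show separate groups, the TFEB arrays lie farther apart within a group than those of MCOLN1, and the 4 relatives lie below the brightness filter of 3.82.

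The other genes of both families were dim. MITF, the melanocyte factor of the MiT/TFE family, stood at 3.31 and 3.23 on the origamicin arrays, against 3.09 and 3.15 on the mock arrays. TFEC, a family member known mainly from macrophages, stood at 2.23 and 2.38 on the origamicin arrays and at 2.49 and 2.10 on the mock arrays. Its groups overlapped, whereas those of MITF did not. The mucolipin channel MCOLN2 had 3.22 and 2.78 with origamicin, against 2.95 and 3.11 in mock. MCOLN3, the remaining mucolipin, had 3.30 and 3.20 with origamicin, against 3.28 and 3.41 in mock. Both pairs of groups overlapped. All 4 genes were below 3.82 on average and were therefore left out of the test, and at this brightness a change may not be detectable.

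The genes whose pattern over the 4 arrays was most like each member were found by Euclidean distance between log2 values centred on each gene's mean. For TFE3 they were NAV2, CLU, PACS1, LCN1 and RNF152, at distances from 0.013 to 0.062. For TFEB they were KMT2D, RIGI, SUSD6, PTN and SMAD6, at 0.028 to 0.080. For MCOLN1 they were PLXNB2, ARHGAP21, RBM19, IQGAP1 and B2M, at 0.0080 to 0.017. No member was among the nearest genes of another, and any gene outside the nearest lies farther by construction. TFE3 was 0.28 from TFEB and 0.25 from MCOLN1, and TFEB was 0.31 from MCOLN1. The values were centred but not scaled, so a distance also holds the unlike sizes of the differences. With 4 arrays that share one treatment contrast, such distances describe these libraries only.

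The next comparison set the genes around the 3 regulators side by side. There were 7 lists (nutrient sensing at the lysosome, lysosomal calcium and calcineurin, hydrolases, membrane and sorting proteins, V-ATPase, autophagy, and other known TFEB or TFE3 targets) with 221 different genes, of which 124 had a named probe set and 122 were tested. In the limma fit with Benjamini-Hochberg adjustment over all genes tested, 0 of 11883 genes (0%) and so 0 list genes had an adjusted p under 0.05. At an unadjusted p under 0.05 in that limma fit, 30 list genes (24.6%) were higher and 2 (1.64%) lower, where 7.99% and 8.42% of all genes tested were higher and lower. When eBayes let the spread follow the brightness of a gene (an intensity trend), 9 list genes (7.38%) rose and 1 fell, beside 2.14% and 2.16% of all genes tested. Every SE given with a difference is from the limma fit without this trend, also where an adjusted p with the trend is printed. Of the 122 list genes, 89 (73.0%) were higher in origamicin cells, with a median difference of 0.07, against 47.9% of all genes tested, with a median of -0.01. The groups did not overlap for 54 list genes that were higher (44.3%, beside 22.7% of all genes tested) and for 12 that were lower (9.84%, beside 25.8%). The lists were written with earlier results of these data known, so all these shares are a description and not independent evidence.

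The calls with an intensity trend were sensitive to single arrays. Without origamicin replicate 1 or 2, 4 and 7 list genes passed, and without mock replicate 1 or 2 only 1 passed each time. SQSTM1 was the 1 gene of the 10 that passed in every such fit. In these fits the lone array of a group is assumed to vary like the others. Within a culture of mixed cells, a higher value can come from more RNA per cell or from more cells that express the gene, and bulk arrays cannot tell these apart.

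**Figure D2:**
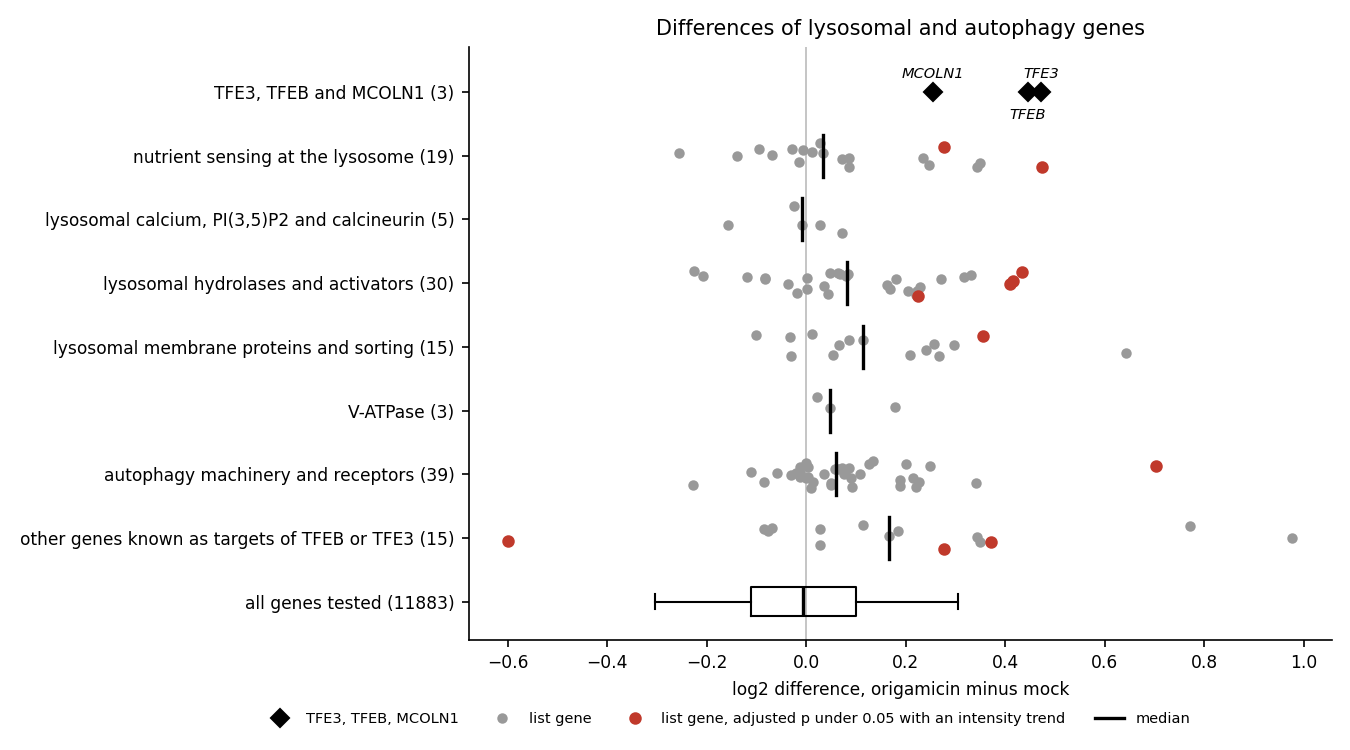
Log2 difference (origamicin minus mock) of every tested gene of each list, with the number of genes in brackets, the list's median as a bar, and red for an adjusted p under 0.05 with an intensity trend; the box for all genes tested spans the 25th to 75th percentile and its whiskers the 5th to 95th. TFE3, TFEB and MCOLN1 are at 0.47, 0.45 and 0.25, and the list medians lie between -0.01 and 0.17, beside -0.01 for all genes tested.

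Nutrient sensing at the lysosome governs where TFE3 and TFEB reside. Of 19 tested genes (27 in the list), 12 were higher and 7 lower, with a median of 0.03. None passed in the limma fit. At an unadjusted p under 0.05 in that fit, 5 were higher (26.3%, beside 7.99% of all genes tested) and 1 lower (5.26%, beside 8.42%). With an intensity trend 2 rose (10.5%, beside 2.14% of all genes tested). RRAGC, which encodes a Rag GTPase through which TFE3 and TFEB reach the lysosome, had 7.50 and 7.47 on the origamicin arrays, against 6.94 and 7.09 on the mock arrays. It rose by 0.47 ± 0.08 with an adjusted p of 0.024 in limma with an intensity trend and of 0.17 without it.

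FLCN, FNIP1 and FNIP2 showed the same direction as RRAGC. FLCN, the tumour suppressor folliculin, forms with FNIP1 or FNIP2 the complex that activates RagC. FLCN stood at 6.56 and 6.45 with origamicin, against 6.13 and 6.18 in mock, a difference of 0.35 ± 0.07 that did not pass (limma adjusted p = 0.18, and 0.086 with an intensity trend). FNIP1 stood at 8.48 and 8.44 with origamicin, against 8.15 and 8.22 in mock, a difference of 0.28 ± 0.07. Its limma adjusted p was 0.044 with an intensity trend and 0.20 without it. FNIP2 was named for its role with its values known, and had 7.60 and 7.48 with origamicin, against 7.26 and 7.12 in mock, a difference of 0.34 ± 0.09. For these 4 genes every origamicin array lay above every mock array. In the whole list, this held for 7 of 19 genes (36.8%, beside 22.7% of all genes tested), and for 3 genes (15.8%, beside 25.8%) every origamicin array lay below.

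In other parts of the nutrient sensor, RRAGD, MTOR and RRAGA differed little, while TSC1 and KPTN differed more. The genes of this paragraph other than KPTN were named for their roles after their values were seen. RRAGD, the paralogue of RRAGC and a known TFEB target, differed by 0.03 ± 0.10, and its groups overlapped. The kinase gene MTOR differed by 0.03 ± 0.06. RRAGA, which pairs with RagC or RagD, differed by -0.10 ± 0.08. TSC1, a subunit of the complex that restrains mTORC1, was at 8.60 and 8.55 with origamicin, against 8.32 and 8.35 in mock. It differed by 0.23 ± 0.06, and its groups did not overlap. KPTN, a subunit of the KICSTOR complex that anchors an inhibitor of mTORC1 to the lysosome, was lower, at 6.51 and 6.47 with origamicin, against 6.74 and 6.74 in mock (difference -0.26 ± 0.06, limma adjusted p = 0.20, and 0.13 with an intensity trend).

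Around MCOLN1, few genes of lysosomal calcium handling could be followed. Only 5 of 14 were tested, 2 higher and 3 lower, with a median of -0.01, and none passed in the limma fit, at an unadjusted p under 0.05 or with an intensity trend. The lysosomal 2-pore channels TPCN1 and TPCN2 differed by 0.07 ± 0.07 and -0.16 ± 0.11. VAC14, a scaffold of the enzyme that makes the lipid activating TRPML1, differed by -0.03 ± 0.07, and the lysosomal pump ATP13A2 by 0.03 ± 0.07. The calcineurin genes PPP3CA, PPP3CB, PPP3CC and PPP3R1 had no named probe set and were not analysed here.

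Among lysosomal hydrolases and their activators, 23 of 30 tested genes (50 in the list) were higher, with a median of 0.08. None passed in the limma fit. At an unadjusted p under 0.05 in that fit, 9 were higher (30.0%, beside 7.99% of all genes tested) and none lower (beside 8.42%). With an intensity trend 4 rose (13.3%, beside 2.14% of all genes tested). SCPEP1, a serine carboxypeptidase-like protein, had 8.81 and 8.90 with origamicin, against 8.39 and 8.45 in mock (0.43 ± 0.07, limma adjusted p = 0.014 with an intensity trend and 0.16 without it). NEU1, the lysosomal sialidase, had 7.56 and 7.47 with origamicin, against 7.10 and 7.10 in mock (0.41 ± 0.07, adjusted p = 0.024 with the trend in limma and 0.16 without it). HGSNAT, which acetylates heparan sulfate in the lysosomal membrane, had 9.29 and 9.17 with origamicin, against 8.87 and 8.77 in mock (0.41 ± 0.08). IDS, iduronate sulfatase, had 9.62 and 9.64 with origamicin, against 9.40 and 9.40 in mock (0.23 ± 0.06). The limma adjusted p with the trend was 0.019 for HGSNAT and 0.037 for IDS, and 0.17 and 0.22 without it.

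Other hydrolases did not pass in either fit. GM2A, the activator of ganglioside breakdown, differed by 0.33 ± 0.08. The carboxypeptidase CTSA (0.23 ± 0.07), the peptidase TPP1 (0.22 ± 0.07) and the aspartic protease CTSD (0.18 ± 0.07), named after their values were seen, were higher by smaller amounts. The protease genes CTSH and LGMN, also named after their values were seen, had the largest differences on the lower side of the list, -0.23 and -0.21. CTSH had 5.07 and 4.90 with origamicin, against 5.18 and 5.25 in mock.

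The membrane and sorting list showed 12 of 15 tested genes (40 in the list) higher, with a median of 0.11. None passed in the limma fit. At an unadjusted p under 0.05 in that fit, 7 were higher (46.7%, beside 7.99% of all genes tested) and none lower (beside 8.42%). With an intensity trend 1 rose (6.67%, beside 2.14% of all genes tested). That gene was IGF2R, the receptor that sorts mannose-tagged hydrolases to lysosomes, with 8.79 and 8.76 on the origamicin arrays, against 8.40 and 8.43 on the mock arrays (0.36 ± 0.06, limma adjusted p = 0.016 with the trend and 0.17 without it). LAMP3, a lysosomal membrane protein induced in some stress states, had 4.33 and 4.43 with origamicin, against 3.56 and 3.91 in mock. Its mock mean of 3.74 lay below the brightness filter, and LAMP3 was tested only because its origamicin mean of 4.38 raised its mean over all arrays. The size of its difference (0.64 ± 0.14) is therefore uncertain. LAMP3 is nevertheless counted among the 7 genes higher at an unadjusted p under 0.05 in the limma fit. OSTM1, the partner of the lysosomal chloride transporter, differed by 0.30 ± 0.07, and the tetraspanin CD63 by 0.24 ± 0.08. The abundant lysosomal glycoproteins LAMP1 and LAMP2, named after their values were seen, differed by 0.21 ± 0.07 and 0.09 ± 0.08.

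The V-ATPase acidifies the lysosome, and its core subunits are classic TFEB targets, but none of them had a named probe set and they were not analysed here. The 3 of 22 listed genes that were tested encode proteins that assemble or regulate the pump. WDR7 differed by 0.18 ± 0.07, DMXL2 by 0.05 ± 0.07 and DMXL1 by 0.02 ± 0.07. None passed in the limma fit, at an unadjusted p under 0.05 or with an intensity trend.

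In the autophagy list, 30 of 39 tested genes (51 in the list) were higher, with a median of 0.06. None passed in the limma fit. At an unadjusted p under 0.05 in that fit, 6 were higher (15.4%, beside 7.99% of all genes tested) and none lower (beside 8.42%). With an intensity trend 1 rose (2.56%, close to the 2.14% of all genes tested). That gene was SQSTM1, which encodes the cargo receptor p62 and is also a target of NRF2. It had 8.32 and 8.22 on the origamicin arrays, against 7.59 and 7.54 on the mock arrays, a difference of 0.70 ± 0.07. Its limma adjusted p was 0.0031 with the trend and 0.095 without it. WDR45, ATG2B and VPS18, which act in building and fusing autophagosomes, differed by 0.25 ± 0.07, 0.22 ± 0.07 and 0.21 ± 0.07 and did not pass. The autophagosome marker gene MAP1LC3B, named for its role after its values were seen, differed by 0.00045 ± 0.10, and the initiating kinase gene ULK1, named likewise, by -0.01 ± 0.09.

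The list of other known TFEB or TFE3 targets, which shares FLCN, FNIP1, FNIP2 and RRAGD with the nutrient sensing list, had a median of 0.17, with 11 of 15 tested genes (21 in the list) higher. None passed in the limma fit. At an unadjusted p under 0.05 in that fit, 6 were higher (40%, beside 7.99% of all genes tested). In the same fit 1 was lower (6.67%, beside 8.42%). With an intensity trend 2 rose (13.3%, beside 2.14% of all genes tested) and 1 fell (beside 2.16%). GPNMB, a lysosomal glycoprotein widely used as a readout of these factors, had the largest difference of the list, with 5.78 and 6.37 on the origamicin arrays, against 4.93 and 5.26 on the mock arrays. Its difference of 0.98 ± 0.23 (1.97-fold) did not pass in limma (adjusted p = 0.19, and 0.051 with an intensity trend), and its origamicin arrays lay 0.58 apart.

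SESN2, a sestrin that restrains mTORC1 and is also a p53 and ATF4 target, had 7.61 and 7.50 with origamicin, against 7.13 and 7.23 in mock. It differed by 0.37 ± 0.08, and its limma adjusted p was 0.043 with an intensity trend and 0.18 without it. TXNIP, an inhibitor of thioredoxin and of glucose uptake, went the other way. It had 8.60 and 8.41 with origamicin, against 9.05 and 9.15 in mock, and fell by 0.60 on the log2 scale (SE 0.10). Its limma adjusted p was 0.012 with the trend and 0.16 without it.

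**Figure D3:**
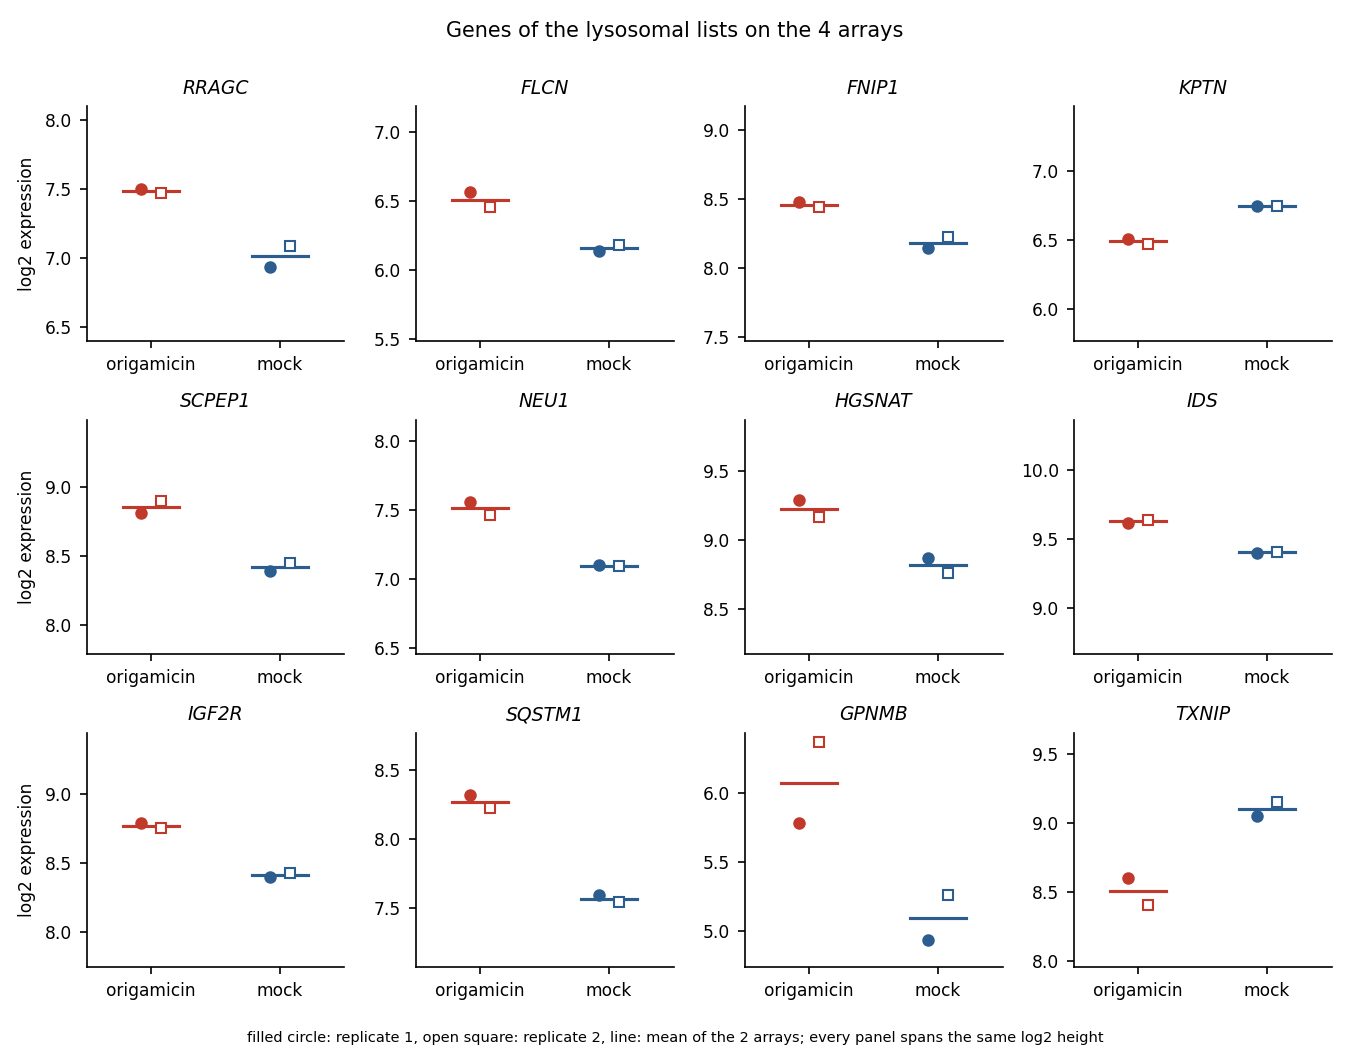
Log2 expression of 12 genes of the lysosomal lists on each array, with origamicin left of mock; points are the 2 arrays of a group, the line is their mean, and each panel spans 1.7 log2 units. Both origamicin arrays lie above both mock arrays in 10 panels and below them for KPTN and TXNIP; the genes are among those named by rule for a small p, so these counts do not stand for the lists, and over all genes tested such separation was seen for 22.7% on the higher and 25.8% on the lower side.

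The E-box of the MCOLN1 promoter recurred in several of these genes. Of the 10 list genes that passed with an intensity trend, 9 had a promoter window in the table, and 5 of the 9 held TCACGTG: RRAGC, FNIP1, SCPEP1, NEU1 and IGF2R. It was in 23 of the 95 tested list genes with a window (24.2%), and in 6.65% of all tested genes with one. Of the 23 list genes 17 were higher. The others include DPP7 (-0.08), ATF4 (-0.07) and M6PR (-0.03), named after their values were seen. Only the elements of the 5 passing genes are shown, with flanks, to set the bases next to the core beside those of MCOLN1. Each line names the gene, the window in GRCh38.p14 and its strand, with the match to TCACGTG on either strand in capitals.
RRAGC (chr1:38859870-38859893, minus strand): tgattccggCACGTGAcggggcac
FNIP1 (chr5:131797178-131797201, minus strand): cgcccctgcCACGTGAcgggaccc
FNIP1 (chr5:131797097-131797120, minus strand): gcgcgccgcCACGTGAtgcggccc
SCPEP1 (chr17:56978095-56978118, plus strand): cgcctccgTCACGTGAtggggcgc
NEU1 (chr6:31862933-31862956, minus strand): ctgcgtgaTCACGTGggaggagat
IGF2R (chr6:159968941-159968964, plus strand): cgctgcgcTCACGTGAcccgggcc
IGF2R (chr6:159968999-159969022, plus strand): caagggagTCACGTGAgcgggggg
IGF2R (chr6:159969045-159969068, plus strand): ggcggctgTCACGTGAcgcggttc
The full palindrome seen at both MCOLN1 elements, with the motif on both strands, was present in SCPEP1 and at all 3 elements of IGF2R, while RRAGC, FNIP1 and NEU1 matched on one strand only. The windows of SQSTM1, TXNIP, IDS and SESN2 held none of the 3 motifs. Neither did the window of FLCN.

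**Figure D4:**
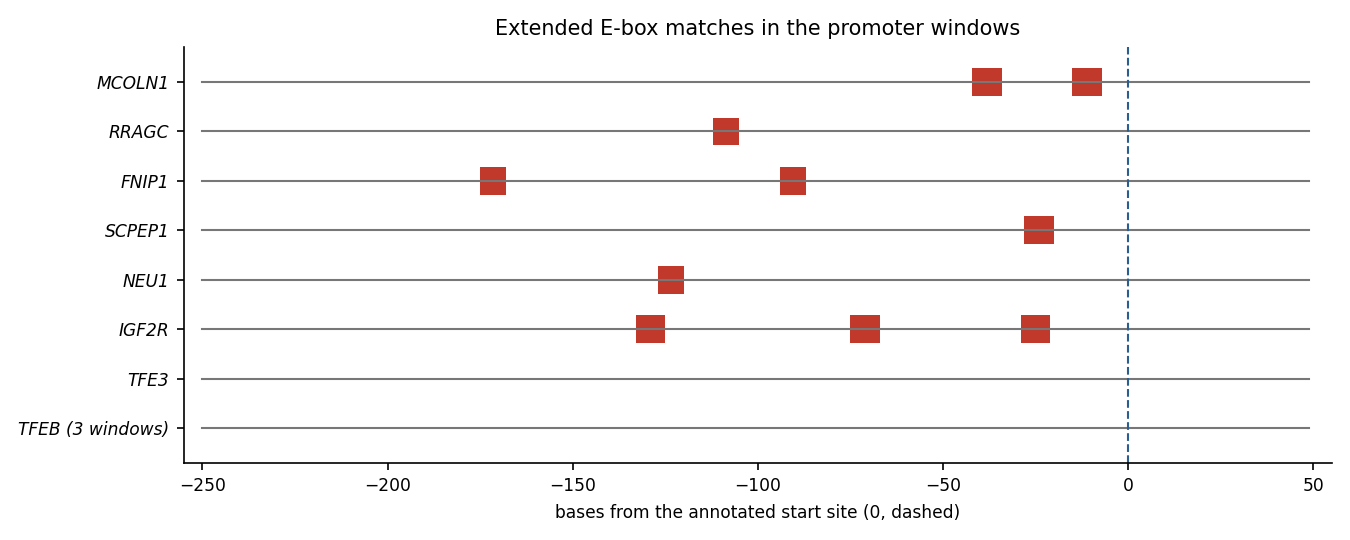
Positions of TCACGTG matches on either strand (red) along the promoter windows, in bases from the annotated start site (dashed line at 0). MCOLN1 has 2 elements within the 50 bases before the start site, RRAGC and NEU1 have 1 each farther away, and the windows of TFE3 and TFEB have none.

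The motif was found in a larger share of the lists than of all genes tested, and list genes with and without it had medians close to each other; for the rarer TCATGTG the medians were farther apart. Of the 95 tested list genes with a promoter window, 23 (24.2%) held TCACGTG in at least 1 window, against 602 of all 9053 tested genes with a window (6.65%). It was in 9 of 20 hydrolase genes, 4 of 11 membrane and sorting genes, 5 of 15 nutrient sensing genes, 3 of 13 other TFEB or TFE3 targets, 3 of 31 autophagy genes, 0 of 5 lysosomal calcium genes and 0 of 3 V-ATPase genes. The median difference was 0.09 in the 23 list genes with the motif, of which 17 were higher, and 0.07 in the 72 without it, of which 52 were higher. Over all tested genes with a window the medians were 0.01 with the motif and -0.01 without it. TCATGTG was in 10 of the 95 list genes (10.5%), against 2.61% of the 9053 genes. Its median difference was 0.14 in the 10 list genes with it, of which 7 were higher, and 0.07 in the 85 without it, of which 62 were higher. CACGTG was in 26 list genes (27.4%), against 12.0% of the 9053 genes, with medians of 0.07 in list genes with it and 0.07 in those without. No test was made of these shares or medians. The lists were built around the lysosome and known targets of these factors, so nothing is read from the larger shares.

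Markers of cell types were read in the same comparison. Over all genes tested, 47.9% were higher with origamicin. With an intensity trend in limma, 2.14% of all genes tested rose and 2.16% fell. Noradrenergic markers, which define SH-SY5Y cells, were present: all 11 that had a probe set were above the filter, with list means of 9.80 and 9.82 on the origamicin arrays and 10.1 and 10.1 on the mock arrays, and 1 of the 11 was higher with origamicin. With an intensity trend in limma, 4 noradrenergic markers fell: CHGA (-0.80), CHGB (-0.76), DDC (-0.59) and ISL1 (-0.30). Mesenchymal neuroblastoma markers were higher for 9 of 10, with list means of 6.44 and 6.52 with origamicin and 6.18 and 6.18 in mock. Of these, 4 rose with the trend: FOSL1 (0.76), VIM (0.45), FN1 (0.37) and SNAI2 (0.30). Markers of glial (3 of 4 higher) and pigment cells (3 of 4 higher) gave means of 4.97 to 5.03 and 4.24 to 4.26 with origamicin, and 4.86 to 4.91 and 4.17 to 4.31 in mock. Of the pigment cell markers, which MITF controls in melanocytes, TYR, TYRP1 and MLANA were below the filter and PMEL was above it. TYR and MLANA, counted as higher, differed by only 0.0078 and 0.010. Macrophage markers had 3 of 8 genes named, all 3 higher, with means of 5.36 and 5.37 with origamicin and 4.77 and 5.05 in mock. CD68 led them, with 7.01 and 6.90 on the origamicin arrays, against 5.91 and 6.31 on the mock arrays (0.84 ± 0.15, limma adjusted p = 0.024 with an intensity trend). Its product is a lysosomal membrane protein also found outside macrophages. PTPRC, ITGAM, AIF1, C1QA and C1QB were not analysed here. The macrophage markers CD14 and CSF1R differed by 0.41 ± 0.14 and 0.11 ± 0.12. The part of these cell types in the lysosomal differences was not tested.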

How the data were processed

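The authors deposited log2 expression values per probe set, made with RMA, which corrects background, normalizes by quantiles and summarises probes; RMA and limma are named without versions, per the submitters' processing notes. The genome build is not given in the sources used here. Deposited values ran from 0.574 to 14.5, with array medians of 4.37 to 4.42, and were not normalized again. Arrays have no counting depth, and the number of arrays limits the precision.

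The platform annotation named 1 gene for 16098 of 53617 probe sets, and all identifiers matched RefSeq. Per gene the probe set with the highest mean was kept, and genes with a mean below the 40th percentile (3.82) were left out. The test was limma (version 3.58.1, R 4.3.3, lmFit, eBayes, two-sided, Benjamini-Hochberg over 11883 genes, threshold 0.05). Fits with and without an intensity trend were run on simulated data, but recovery of planted differences was required only with the trend. The outcome is not given here, and nothing is read from it. Alternatives were a replicate block, filters, equal medians, quantile normalization, mean of probe sets, an intensity trend, robust eBayes, thresholds and leaving out arrays. Fits joining the trend with the block or with a left-out array were added after seeing the data. Members and lists were chosen with earlier results of these data known. Named genes were the members and their families, the 4 smallest p of each list, list genes past 0.05 in either fit and the 5 nearest patterns. Promoter windows came from RefSeq (GRCh38.p14). Replicate numbers did not pair the arrays (r = -0.02 between deviations of same-numbered arrays).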

Additional observations from a re-analysis of the deposited data

How the results depend on the processing

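Genes past the threshold numbered 0 in the chosen limma fit, with a replicate block, without a filter, with equal medians, with quantile normalization, with the mean of probe sets and with robust eBayes. They numbered 92 with the 60th percentile filter, 511 with an intensity trend, 53 at an adjusted p under 0.1 and 1950 at an unadjusted p under 0.05. Among the 122 list genes the same settings gave 1, 10, 1 and 32. Leaving out 1 array gave 0 in every fit without the trend, and with the trend 58 to 323 genes, of which 1 to 7 were list genes: 196 and 323 genes (4 and 7 list genes) without origamicin replicates 1 and 2, and 60 and 58 (1 and 1) without mock replicates 1 and 2. The trend with a replicate block, a pairing that the labels do not state, gave 277 genes and 7 list genes.

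The differences of TFE3, TFEB and MCOLN1 kept their sign in every alternative run. Their groups did not overlap, so leaving out 1 array could not turn a sign. A replicate block and the mean of probe sets could not change these differences, with balanced groups and 1 probe set per gene. Nothing is read from the kept signs. With equal array medians MCOLN1 was 0.24, and the medians were 0.0176 for nutrient sensing, -0.0244 for lysosomal calcium, 0.0443 for autophagy and 0.0509 for all lists together. Nutrient sensing gave 0.0308 with the 60th percentile filter and 0.0356 with quantile normalization. Lysosomal calcium, with few genes, gave 0.0098 without a filter. Leaving out 1 array, the medians ranged from 0.0317 to 0.0550 for nutrient sensing, from -0.0381 to 0.0740 for lysosomal calcium, from 0.0745 to 0.15 for hydrolases, from 0.11 to 0.18 for membrane and sorting genes and from 0.13 to 0.21 for other targets. The cause of these moves was not tested. Dim genes such as TFEB and LAMP3 are limited by array background, and 97 of the 221 list genes had no named probe set.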
